A study of Mus musculus with 13 samples.

Results

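The genes described here encode splicing factors and heterogeneous nuclear ribonucleoproteins (hnRNPs). They were chosen by symbol: a gene was included where a probe carried exactly 1 gene symbol and that symbol began with Hnrnp, Srsf, Snrp, Sf3a, Sf3b, Prpf or U2af, or with the older forms Hnrp and Sfrs. The rule found 52 genes on 67 probes, of 9669 genes with a symbol and 20205 probes on the array. Of the 52 genes, 16 were hnRNP genes, 7 encoded SR proteins and 10 were Snrp genes of the small nuclear ribonucleoproteins (snRNPs). A further 9 were Sf3a, Sf3b and U2af genes, called here the U2 snRNP and U2AF group, and 10 were Prpf genes. Groups followed the symbol, so U2 snRNP proteins with an Snrp symbol are in the Snrp group. A further 19 probes matched a symbol of the rule beside other symbols and were left out.

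Splicing removes introns from pre-mRNA. The U1 snRNP marks the start of an intron, U2AF and the U2 snRNP mark its end and its branch point, and the U4, U5 and U6 snRNPs, with which many Prpf proteins act, complete the machine that cuts and joins. SR proteins bind exons and usually favour their inclusion, whereas hnRNP proteins coat nascent transcripts and often keep exons out, so that the balance of both families sets which exons a cell uses. Both families are abundant in dividing cells, and many of their own transcripts are under splicing control.

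The study hybridised mouse total RNA on 13 two-colour arrays, and every array carried NT1 and TBV RNA in opposite dyes. The series title sets Sall4 -/- beside NT1. The Sall4 protein is a zinc finger regulator of transcription, known from early embryos and embryonic stem cells. No label gives a cell type, a treatment or the way the allele was made, and none says how many clones or cultures the sources stand for. The arrays formed 4 source pairs, written here with a slash, NT1 source first. NT1p14/TBVp13 had 5 arrays and NT1p12/TBVp12 had 4. NT1 1/TBV2 and NT1p12/TBVp13 had 2 each. The labels speak of passages that differ, and the number after p was taken as the passage. Cy5 carried the NT1 source on 7 arrays and the TBV source on the other 6.

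Values are given as NT1 over TBV on a log2 scale, as the deposited ratios were read here: Cy5 over Cy3, turned on the arrays with TBV in Cy5. Neither the log base nor the numerator is given in the sources used here, so no value is turned into a fold, and the sign of all values together could be the reverse. The direction is also not settled between pairs. Of 10 pairings of an array of NT1p14/TBVp13 and an array of NT1p12/TBVp12 in the same dye orientation, 8 correlated below 0 over all probes, and 3 lay under -0.3, with a range of -0.36 to 0.24. The main counts and medians of the splicing genes are therefore also given with the sign of a pair turned. Given only as labelled are single genes of the pair difference and the other gene lists. The same holds for counts over the signs of all pairs and over the overlap of arrays. A pair value is the mean of both dye orientations, so that a constant dye effect cancels. In bulk RNA, fewer cells of a type and less RNA per cell cannot be told apart, and a table of ratios holds no levels with which a cell type could be checked.

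Between 14314 and 18381 probes had a value on each array. Arrays 4 and 5 of NT1p14/TBVp13 had the widest spread over probes (SD 1.004 and 1.142), against 0.335 to 0.807 on the other arrays. Decimals were missing from much of the table: 32.4% of the 753 values of the splicing genes were whole numbers, against 19.3% of all 220028 values, and 122 of the 753 were 0. Of 19859 values of size 1 or more in the table, 79 had decimals. A whole number therefore stands for a range of ratios, and a standard error taken over such values is not a full measure of their error.

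Hnrnpl encodes a protein that binds CA-rich RNA and represses or activates nearby exons, and it was the gene with the lowest value over the 3 pairs that share no RNA source. It was already known from earlier results of these data, so its values are a description. On the 5 arrays of NT1p14/TBVp13 it read 0, -1, 0, -1 and -2. On 3 arrays of NT1p12/TBVp12 it read -2 each, with no value on the other array. It read -1 and -2 for NT1 1/TBV2, and -1 and -1 for NT1p12/TBVp13. Thus 10 of 12 arrays were below 0, 2 were at 0 and none was above. All 12 values were whole numbers before the arrays were centred, and the gene had 1 probe, so no second probe was at hand.

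The mean of Hnrnpl over the 3 pairs was -1.44 ± 0.59 (SD, n = 3), with a limma unadjusted p of 0.00145. Counted from the lowest mean it ranked 1, and from the smallest p it ranked 2, among 14663 genes and unnamed probes, and its adjusted p was 1.00 by the Benjamini-Hochberg method. The mean was -0.89 with NT1p14/TBVp13 turned and -0.11 with NT1p12/TBVp12 turned. The size of the mean thus depends on the direction of NT1p12/TBVp12 as labelled. Without turning, the pair value of Hnrnpl was also below 0 in NT1p14/TBVp13, at -0.83, and in NT1 1/TBV2, at -1.50. The other 43 splicing genes with a value in all 3 pairs had means between -0.33 and 0.24. The paralogue Hnrnpll, which represses exons in lymphocytes, averaged 0.02 ± 0.17 (SD, n = 3). Its Cy5 over Cy3 ratio was below 0 on 12 of 13 arrays, so its single arrays mostly followed the dye.

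The start-site sequence of Hnrnpl is shown because this gene stood apart. The 150 bases before its RefSeq start, chr7:28810740-28810889 on the plus strand of GRCm38.p6, are printed with motifs in capitals. The CCAAT box was searched as CCAAT, or as ATTGG for the other strand. The GC box was searched as GGGCGG, or as CCGCCC for the other strand. The TATA box was searched as TATAAA, or as TTTATA for the other strand. The E-box was searched as CACGTG, which reads alike on both strands. No motif overlaps another in these windows. Srsf3, Hnrnpab and Hnrnpul1 are shown beside it because they carry the comparison of the pairs given further on. Their windows are chr17:29032510-29032659 on the plus strand, chr11:51606882-51607031 on the minus strand and chr7:25754760-25754909 on the minus strand.
Hnrnpl: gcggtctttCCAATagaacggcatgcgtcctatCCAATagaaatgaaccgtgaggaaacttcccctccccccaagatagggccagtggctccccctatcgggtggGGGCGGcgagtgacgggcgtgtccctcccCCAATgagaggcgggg
Srsf3: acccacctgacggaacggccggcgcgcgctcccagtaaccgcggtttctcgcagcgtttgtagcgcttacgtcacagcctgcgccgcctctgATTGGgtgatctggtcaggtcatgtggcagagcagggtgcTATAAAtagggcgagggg
Hnrnpab: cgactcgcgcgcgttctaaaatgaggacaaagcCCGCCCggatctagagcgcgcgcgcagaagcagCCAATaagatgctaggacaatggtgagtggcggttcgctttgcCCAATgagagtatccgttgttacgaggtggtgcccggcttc
Hnrnpul1: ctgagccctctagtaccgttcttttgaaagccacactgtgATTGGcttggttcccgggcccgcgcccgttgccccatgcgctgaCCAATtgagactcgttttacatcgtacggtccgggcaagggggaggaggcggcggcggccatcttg

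The Hnrnpl window held 3 CCAAT matches and 1 GGGCGG match. The Srsf3 window held 1 ATTGG and 1 TATAAA, the Hnrnpab window 2 CCAAT and 1 CCGCCC, and the Hnrnpul1 window 2 matches to CCAAT on either strand. RefSeq promoters were found for 45 of the 52 genes, 57 promoters in all. CCAAT on either strand was in 40.4% of these, against 24.5% of all 32851 promoters, and GGGCGG on either strand in 49.1% against 28.6%. CACGTG was in 10.5% against 4.3%, and TATAAA on either strand in 3.5% against 7.6%. The median number of CpG dinucleotides in the window was 15, against 4 over all promoters. Hnrnpul1, with a pair difference opposite in sign to those of Srsf3 and Hnrnpab, shared the CCAAT match with both. These matches are letters in a window and are no evidence of binding.

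The first comparison asked whether NT1 differed from TBV over the 3 pairs that share no source. None of the 44 splicing genes with a value in each pair passed an adjusted p of 0.05 (limma, n = 3). The background was 0 of 14663, or 0.0%. At an unadjusted p under 0.05 there was 1 gene, Hnrnpl, where the background was 1.04%. The median of the 44 means was -0.02, and that of all 14663 was 0.00. Means were above 0 for 16 genes and below 0 for 28. With NT1p14/TBVp13 turned the median of the 44 became -0.16, and with NT1p12/TBVp12 turned it became 0.15.

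Pair values were above 0 in each pair for 2 genes, where the background was 9.06%, and below 0 in each pair for 5, where the background was 5.44%. Both directions together, the share of genes that kept a sign lay near the background. The 2 genes above 0 were Hnrnpa0, a small A-type hnRNP, and Sf3b2, a subunit that holds the branch point region within the U2 snRNP. Hnrnpa0 read 0.07, 0.25 and 0.04 in NT1p14/TBVp13, NT1p12/TBVp12 and NT1 1/TBV2, and was above 0 on 12 of 13 arrays. Sf3b2 read 0.02, 0.02 and 0.15. Both therefore lay close to 0. The 5 genes below 0 were Hnrnpl, Hnrnpa2b1, Snrpa1, Prpf40b and Prpf4b. Prpf40b, related to a yeast factor of the U1 snRNP, averaged -0.18 ± 0.07, and Prpf4b, a kinase of the spliceosome, -0.12 ± 0.05 (SD, n = 3 each).

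Among the hnRNP genes with the smallest p in either direction, Hnrnpa2b1 averaged -0.20 ± 0.27 and Hnrnpdl 0.20 ± 0.46 (SD, n = 3 each). Hnrnpa2b1 is a partner of Hnrnpa1 in exon silencing, and Hnrnpdl encodes a relative of Hnrnpd. Srsf5, an SR protein, averaged 0.18 ± 0.22. Snrpd1, of the Sm ring that encircles snRNAs, averaged 0.24 ± 0.52, and Snrpb2, of the U2 snRNP, 0.13 ± 0.16. Sf3b3, a scaffold of the branch point complex, averaged -0.33 ± 0.76. Each of these SDs was larger than the size of its mean.

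Snrpd1 varied within and between the pairs, and the arrays of NT1p14/TBVp13 and NT1p12/TBVp12 overlapped. It read -0.36, 0.28, 0.20, 0.76 and 0.29 in NT1p14/TBVp13, and -0.58, 0.10, -0.12 and -0.49 in NT1p12/TBVp12. In NT1 1/TBV2 it read 0.83 and 0.69, and in NT1p12/TBVp13 0.37 and 0.45. The arrays of NT1 1/TBV2 were thus among the highest. Hnrnpa1, the most studied exon silencer of the family, had values on 7 arrays, and 1 of them, in NT1 1/TBV2, read 7. It entered neither test. Snrpe had no value on any array, Snrpc and Sf3b5 had 1, and Prpf6 and U2af2 had 2.

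**Figure D1:**
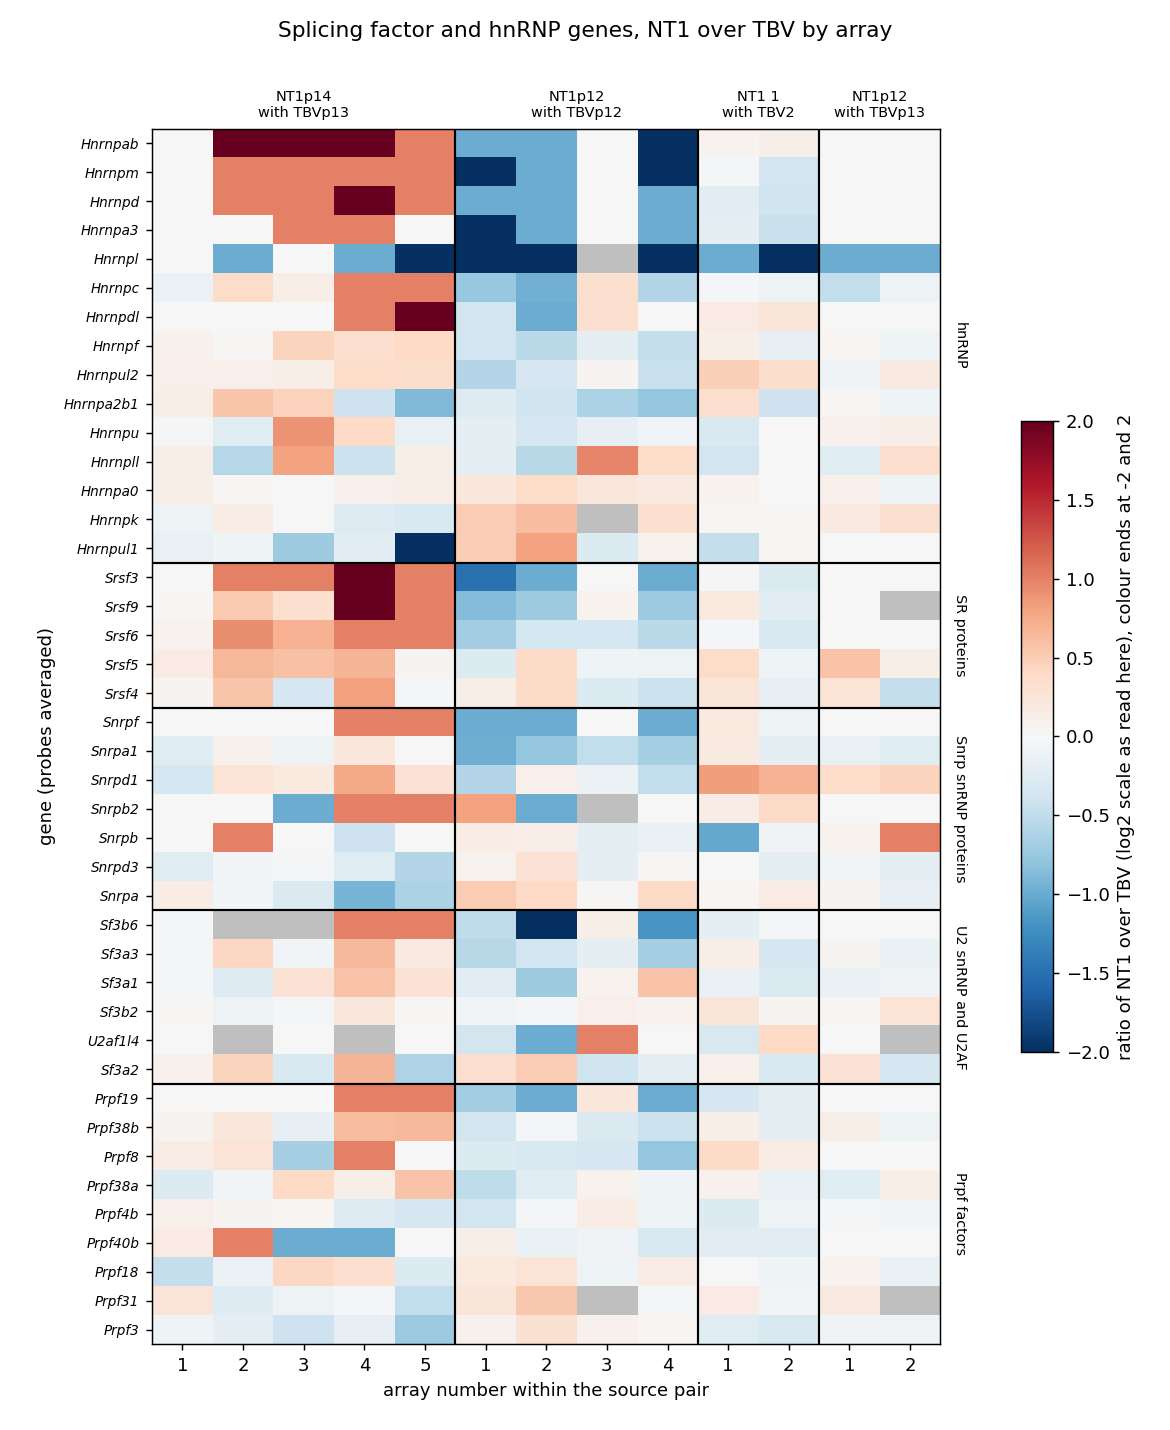
Ratio of NT1 over TBV on the log2 scale as read here, for the 42 splicing genes of the pair difference (rows, grouped by role) on each of the 13 arrays (columns, grouped by source pair); colours end at -2 and 2, and grey marks no value. Hnrnpl has no array above 0, and many of the hnRNP and SR protein genes are above 0 on arrays of NT1p14/TBVp13 and below 0 on arrays of NT1p12/TBVp12.

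As labelled, most of the splicing genes lay on opposite sides of 0 in the 2 pairs with the most arrays. Of 44 genes, 27 were above 0 in NT1p14/TBVp13 and below 0 in NT1p12/TBVp12, where the background was 32.9%. The opposite held for 8 genes, where the background was 38.1%. With NT1p14/TBVp13 turned these 35 genes had the same sign in both pairs (79.5%, against 71.0% of all rows), and 5 genes were above 0 in NT1p14/TBVp13 and below 0 in NT1p12/TBVp12 (11.4%, against 10.5%). Taken over every splicing gene with a value in the pair, the median pair value was 0.20 in NT1p14/TBVp13, -0.27 in NT1p12/TBVp12 and -0.04 in NT1 1/TBV2. Over all rows it was 0.01, 0.01 and 0.00. The shift was uneven between arrays. In array order, the median of the splicing genes was 0.00, 0.07, 0.00, 0.60 and 0.13 in NT1p14/TBVp13, highest on the wide-spread array 4. In NT1p12/TBVp12 it was -0.35, -0.36, 0.00 and -0.31. Across the 44 genes, the values of NT1p14/TBVp13 correlated with those of NT1p12/TBVp12 at r = -0.40 (rho -0.66). Over all 14663 rows r was -0.49 (rho -0.58), so a correlation below 0 was not limited to the splicing genes. Genes are not independent replicates, and the points share the arrays of each pair.

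By role and in the direction as labelled, SR proteins had a median of 0.62 in NT1p14/TBVp13 and -0.52 in NT1p12/TBVp12. Medians by role also cover every gene with a value in the pair, so the genes behind them can differ between pairs. The hnRNP genes had medians of 0.25 and -0.40 in these pairs. The U2 snRNP and U2AF group had 0.19 and -0.09, and the Snrp group 0.10 and -0.03. The Prpf genes had -0.01 and -0.10. In NT1 1/TBV2 the 5 medians lay between -0.11 and 0.05. The gap between the medians of NT1p14/TBVp13 and NT1p12/TBVp12 was 1.14 for SR proteins, 0.65 for hnRNPs and 0.09 to 0.28 for the other groups. With NT1p14/TBVp13 turned it was -0.10 for SR proteins, 0.15 for hnRNPs and -0.10 to 0.11 for the others, so the order of the groups rests on the direction as labelled.

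**Figure D2:**
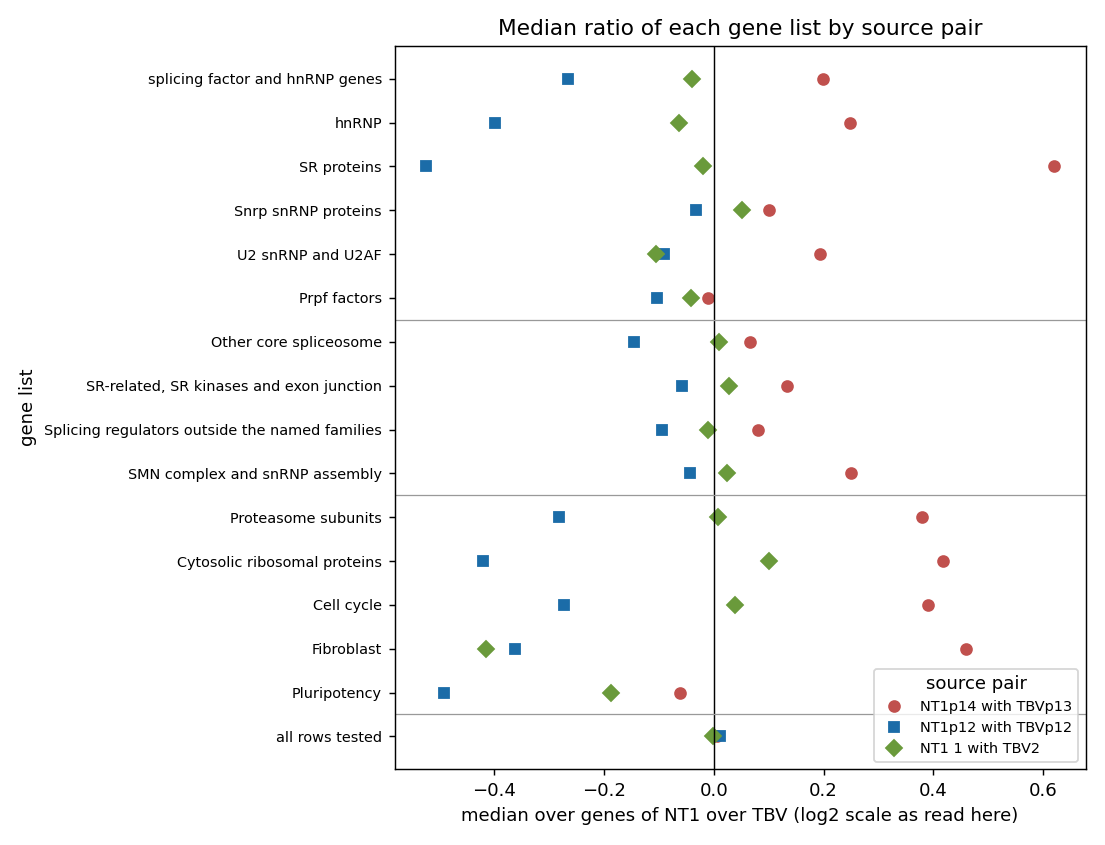
Median pair value of each gene group, NT1 over TBV on the log2 scale as read here, for NT1p14/TBVp13, NT1p12/TBVp12 and NT1 1/TBV2. SR proteins lie at 0.62 in the first of these pairs and -0.52 in the next, and all rows tested lie at 0.01 in both.

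The second comparison set NT1p14/TBVp13 (5 arrays) against NT1p12/TBVp12 (4 arrays). The arrays of a pair share their source names and nothing in the labels separates them, so they were taken as technical repeats, and the p-values measure only the spread between these arrays, which may be technical. Of 42 splicing genes tested, 8 passed an adjusted p of 0.05, or 19.0%, and the background was 1250 of 14343 rows, or 8.72%. The difference was above 0 for 7 of the 8, where the background in that direction was 4.56%, and below 0 for 1, where it was 4.16%. The adjusted p-values of the 8 lay between 0.0402 and 0.0490, close to the threshold, and the smallest of any row was 0.038. The median difference of the 42 was 0.44, that of all rows was -0.02, and 30 of the 42 were above 0. With NT1p14/TBVp13 turned, none of the 42 passed, and neither did any of the 14343 rows. Then 2 of the 42 and 542 of all rows had an unadjusted p under 0.05 (limma), and the median of the 42 was 0.01.

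The calls depended on single arrays. None of the 42 genes, or of those still testable, passed without array 2 or 5 of NT1p14/TBVp13, or without array 1, 2 or 4 of NT1p12/TBVp12. In each of these fits 0.0% of all rows passed. An unadjusted p under 0.05 (limma) was found there for 18 to 22 splicing genes and for 3611 to 4884 of all rows, of 13223 to 14165 tested. Without array 1 of NT1p14/TBVp13 there were 15 calls among 40 genes, where 18.5% of all rows passed, and without its array 3 there were 15 among 41, where 16.2% passed. Without its array 4 there were 5 among 41, where 3.53% passed, and without array 3 of NT1p12/TBVp12 there were 13 among 42, where 10.3% passed. Without both wide-spread arrays 4 and 5 of NT1p14/TBVp13 there were 0 calls (0.243% of all rows passed), and the median difference was 0.31. An unadjusted p under 0.05 (limma) was then found for 19 of 40 genes and for 3699 of 12357 rows. The direction of all 8 genes was the same in each of these fits, but the 8 were picked for their difference on these same arrays.

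Missing decimals moved with the difference. Of 13 tested genes with more whole numbers than decimal values, 12 had a difference above 0 (median 1.18), and of the other 29, 18 did (median 0.29). Values of size 1 or more seldom kept decimals, so this split also sorts genes by size, and the gap in medians was partly fixed in advance. The same split was not made over all rows. Of the 19 tested genes with no whole number at all, 10 were above 0. Limited to probes with no whole number, the test gave 6 calls among 23 splicing genes, 3 higher and 3 lower, with a median of 0.01, where 20.1% of all rows passed, 5.7% higher and 14.4% lower. That limit keeps almost no value of size 1 or more (77 of 11504 such probes had one), so it selects on the outcome, and the part of the missing decimals in the result was not tested.

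**Figure D3:**
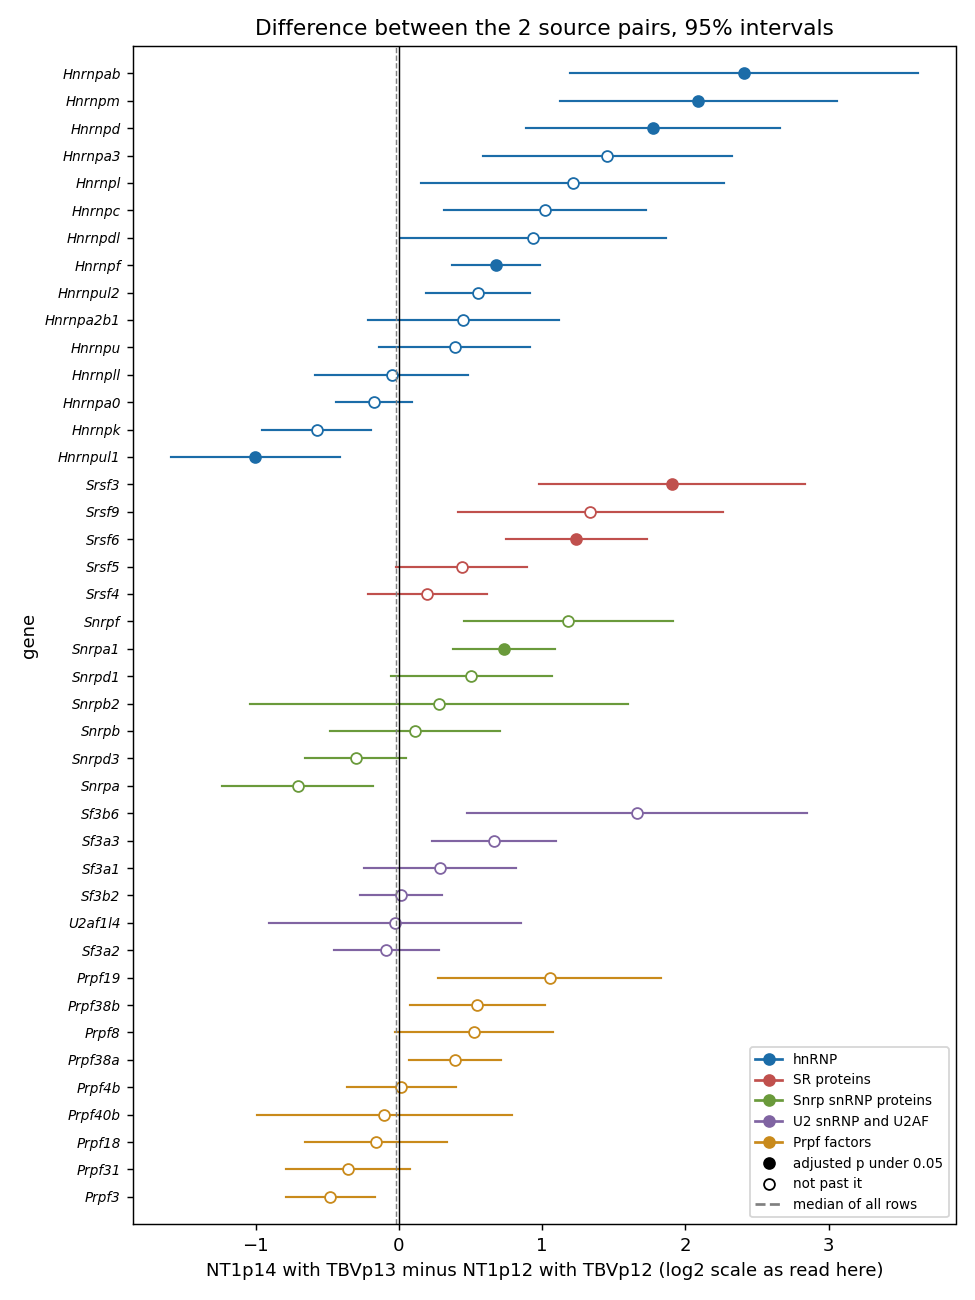
Difference between NT1p14/TBVp13 and NT1p12/TBVp12 for each tested splicing gene, on the log2 scale as read here, with its 95% confidence interval from the limma fit over 7 to 9 arrays per gene. The 8 genes with an adjusted p under 0.05 run from Hnrnpul1 at -1.0 to Hnrnpab at 2.41.

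Of the hnRNP genes, 5 of 15 passed, 4 higher and 1 lower, beside a background of 4.56% higher and 4.16% lower. Hnrnpab encodes an hnRNP related to Hnrnpd that binds AU-rich RNA. It read 0, 2, 2, 2 and 1 in NT1p14/TBVp13 and -1, -1, 0 and -2 in NT1p12/TBVp12. In NT1 1/TBV2 it read 0.08 and 0.12. Its arrays met at 0 only, and the difference was 2.41 (SE 0.53, adjusted p = 0.0419).

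Hnrnpm encodes an abundant hnRNP that binds GU-rich RNA and silences exons. It read 0, 1, 1, 1 and 1 in NT1p14/TBVp13 and -2, -1, 0 and -2 in NT1p12/TBVp12. The groups again met at 0, and NT1 1/TBV2 read -0.04 and -0.38. The difference was 2.09 (SE 0.42, adjusted p = 0.0408).

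Hnrnpd, also called AUF1, binds AU-rich elements and is known for its part in mRNA decay. It read 0, 1, 1, 2 and 1 in NT1p14/TBVp13 and -1, -1, 0 and -1 in NT1p12/TBVp12. The difference was 1.77 (SE 0.39, adjusted p = 0.0409). The 2 arrays of NT1 1/TBV2, at -0.20 and -0.41, lay below 0.

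Hnrnpf binds runs of G near exons. It read 0.09, 0.02, 0.44, 0.34 and 0.40 in NT1p14/TBVp13, all above the -0.38, -0.54, -0.20 and -0.48 of NT1p12/TBVp12. The difference of 0.68 (SE 0.14, adjusted p = 0.0408) came from 1 of its 2 probes. That probe alone gave 1.41 and held 11 whole numbers on 13 arrays, whereas the other gave -0.06 and held none.

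Hnrnpul1, a relative of Hnrnpu with a role in mRNA export and in the response to DNA breaks in human cells, was the 1 gene called lower. It read -0.15, -0.09, -0.71, -0.21 and -2 in NT1p14/TBVp13, against 0.49, 0.80, -0.28 and 0.06 in NT1p12/TBVp12. The groups overlapped through array 3 of NT1p12/TBVp12, and array 5 of NT1p14/TBVp13 lay far below the rest. The difference was -1.0 (SE 0.26, adjusted p = 0.0490).

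**Figure D4:**
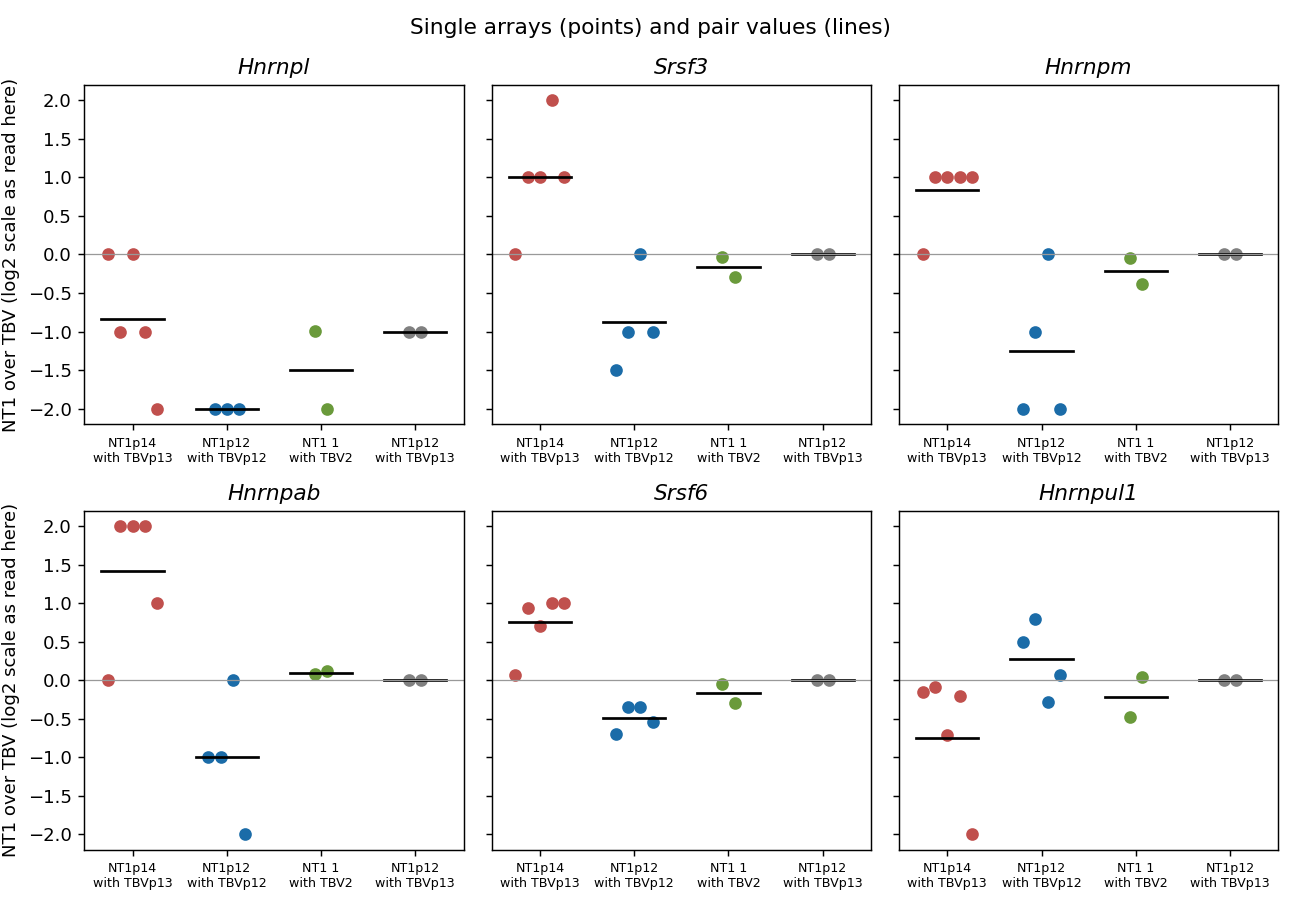
Single arrays (points) and pair values (lines) of Hnrnpl, Srsf3, Hnrnpm, Hnrnpab, Srsf6 and Hnrnpul1, NT1 over TBV on the log2 scale as read here, by source pair. Hnrnpl has no array above 0, and Srsf6 arrays lie between 0.07 and 1 in NT1p14/TBVp13 and between -0.70 and -0.34 in NT1p12/TBVp12.

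Other hnRNP genes lay just beyond the threshold. Hnrnpa3, an A/B-type hnRNP, had a difference of 1.45 (adjusted p = 0.0504), and Hnrnpul2, a nuclear relative of Hnrnpu, had 0.55 (adjusted p = 0.0559). Hnrnpk, which binds C-rich RNA and DNA, had -0.58 (adjusted p = 0.0572). Hnrnpk read -0.09, 0.14, 0.01, -0.26 and -0.31 in NT1p14/TBVp13, all below the 0.51, 0.62 and 0.32 of NT1p12/TBVp12. Hnrnpl itself differed by 1.21 (adjusted p = 0.100). Hnrnpc, which binds U-rich RNA and guards against inclusion of Alu exons in human cells, differed by 1.02 (adjusted p = 0.0609), and its probes with enough values gave 0.77 and 1.26. Hnrnpu, a scaffold of chromatin and RNA, differed by 0.39 (adjusted p = 0.249), Hnrnpa2b1 by 0.45 (adjusted p = 0.286) and Hnrnpll by -0.05 (adjusted p = 0.887).

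Of the SR proteins, 2 of 5 passed, both higher, where the background was 4.56%. Srsf3, the smallest of the family and an adaptor for mRNA export, read 0, 1, 1, 2 and 1 in NT1p14/TBVp13. It read -1.5, -1, 0 and -1 in NT1p12/TBVp12 and -0.04 and -0.29 in NT1 1/TBV2. The groups met at 0, and the difference was 1.91 (SE 0.41, adjusted p = 0.0409). Its 2 probes gave 1.77 and 2.05, and both held 11 whole numbers on 13 arrays.

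Srsf6, an SR protein that promotes exon inclusion, read 0.07, 0.94, 0.70, 1 and 1 in NT1p14/TBVp13. It read -0.70, -0.35, -0.34 and -0.55 in NT1p12/TBVp12, so the groups did not overlap. NT1 1/TBV2 read -0.04 and -0.30. The difference was 1.24 (SE 0.22, adjusted p = 0.0402), which was the smallest adjusted p of the splicing genes.

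Srsf9 differed by 1.34 (adjusted p = 0.0607), and Srsf4 by 0.20 (adjusted p = 0.446). Srsf5 differed by 0.44 (adjusted p = 0.150), but its 2 probes went apart: 1 gave 1.49 and the other -0.61. With each probe tested as its own feature, the probe at 1.49 had an adjusted p of 0.038. Srsf4 and Sf3a2, a subunit of the U2 snRNP, had a Cy5 over Cy3 ratio above 0 on all 13 arrays, whichever source was in Cy5, where the background was 0.612%. In both genes the ratio therefore followed the dye. No splicing gene was below 0 on all 13 arrays, where the background was 0.363%.

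In the Snrp group 1 of 7 passed, beside the 8.72% of all rows. Snrpa1, which encodes the U2 A′ protein, read -0.24, 0.09, -0.11, 0.23 and 0.01 in NT1p14/TBVp13, all above the -0.98, -0.77, -0.49 and -0.66 of NT1p12/TBVp12. All of its values had decimals. The difference was 0.73 (SE 0.16, adjusted p = 0.0409), and NT1 1/TBV2 read 0.17 and -0.19. Snrpf, of the Sm ring, differed by 1.18 (adjusted p = 0.0514). Snrpa, the U1 A protein, went the other way at -0.71 (adjusted p = 0.0714), as did Snrpd3 at -0.30 (adjusted p = 0.191). Snrpd1 differed by 0.51 (adjusted p = 0.171), and Snrpb, which gives the core SmB protein, by 0.11 (adjusted p = 0.772).

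No gene placed by symbol in the U2 snRNP and U2AF group (0 of 6) or in the Prpf group (0 of 9) passed. At an unadjusted p under 0.05 (limma) there were 2 and 4 genes, where the background was 5253 of 14343 rows. Snrpa1 and Snrpb2, also of the U2 snRNP, were counted by symbol in the Snrp group, where Snrpa1 passed. Sf3a3, of the U2 snRNP, differed by 0.66 (limma adjusted p = 0.0550) with no overlap between the pairs, and Sf3a1 by 0.29 (adjusted p = 0.385). Sf3b6, which touches the branch point, differed by 1.66 (limma adjusted p = 0.0689). Its 2 probes had values on partly different arrays, and neither alone had enough to be tested. On array 2 of NT1p12/TBVp12 they read -0.04 and -4. Prpf3, a U4/U6 protein, read -0.09, -0.18, -0.42, -0.17 and -0.73 in NT1p14/TBVp13, all below the 0.09, 0.30, 0.09 and 0.05 of NT1p12/TBVp12. Its difference was -0.48 (adjusted p = 0.0546), and that of Prpf31, its partner on the same snRNP, was -0.36 (adjusted p = 0.199). Prpf8, the core scaffold at the active site, differed by 0.52 (adjusted p = 0.155), and Prpf19, a ubiquitin ligase of the activated spliceosome, by 1.05 (adjusted p = 0.0696).

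Taking only whether arrays overlapped, 5 splicing genes had all arrays of NT1p14/TBVp13 above those of NT1p12/TBVp12, where the background was 7.21%. These were Srsf6, Snrpa1, Sf3a3, Hnrnpul2 and Hnrnpf. All arrays lay below for 3 genes, Prpf3, Hnrnpk and Hnrnpa0, where the background was 6.67%.

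Other genes of the splicing pathway were measured from lists chosen with earlier results known. In the core spliceosome outside the named families, 7 of 41 genes passed, 4 higher and 3 lower, with a median difference of 0.22, and the background for this and the next lists was 8.72% (4.56% higher, 4.16% lower). Lsm6, of the ring that binds U6 snRNA, differed by 1.04 (adjusted p = 0.0408) and Ddx39a, a helicase of mRNA export, by 1.82 (adjusted p = 0.0409). Of SR-related proteins, SR kinases and exon junction proteins 1 of 18 passed: Tra2b, an SR-like activator of exons, at 1.80 (adjusted p = 0.0467), while the kinase Clk3 read -0.93 (adjusted p = 0.0514). Of splicing regulators outside the families 5 of 31 passed, all higher, among them the RNA helicases Ddx3x at 1.58 and Ddx5 at 1.59 (adjusted p = 0.0381 for both). Of the SMN complex and its partners in snRNP assembly 1 of 10 passed: Snupn, which carries snRNPs into the nucleus, at 1.12 (adjusted p = 0.0433). Phax, which exports snRNAs, read 1.56 (adjusted p = 0.0514).

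Gene groups outside splicing also had median differences above 0 between these pairs, in the direction as labelled. Ribosomal protein genes had a median difference of 1.11 with 3 of 36 called, proteasome subunits 0.79 with 8 of 26, and cell cycle genes 0.65 with 7 of 31, all of these calls higher. Fibroblast markers had a median of 0.75 with 5 of 18 called, all higher. Of the 18, 14 had a difference above 0 and 4 below. Acta2 at 1.88, Col1a1 at 1.5 and Col3a1 at 1.35 (limma adjusted p = 0.0381 for each) were among the higher ones. The 4 below 0 were Dcn at -0.35, Lox at -0.19, Col6a1 at -0.185 and Thy1 at -0.10. Pluripotency markers had a median of 0.32 with 1 of 14 called, Lin28a at 1.18 (limma adjusted p = 0.0408). Of the 14, 12 had a difference above 0 and 2 below, Tcl1 at -0.38 and Zfp296 at -0.28. Pou5f1 differed by 0.77 (limma adjusted p = 0.0521). The part of these shifts in the values of the splicing genes was not tested. With arrays centred on ribosomal protein genes instead of all probes, the median difference was -0.48 for the splicing genes and -0.95 for all rows, and 14 of the 42 splicing genes passed, 4 higher and 10 lower. The share of 33.3% lay below the 52.8% of all rows that passed, 0.872% higher and 51.9% lower.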

How the data were processed

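Mouse total RNA was measured on 13 two-colour arrays. The deposited table holds 1 value per probe and array and was read as log2 ratios of Cy5 over Cy3, from the values themselves: the log base, numerator and normalization by the authors are not given in the sources used here. Depth does not apply, and the number of arrays limits the precision. Arrays were grouped by the source names in the labels. Each array was centred on its median and turned to NT1 over TBV. Probes with exactly 1 symbol in the platform annotation were averaged per gene, and the other probes stayed as features of their own; all 52 genes matched the RefSeq gene table by Entrez ID.

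Two-sided tests were run in R 4.3.3 with limma 3.58.1 (lmFit, eBayes); p-values were adjusted over all rows by Benjamini-Hochberg, with a threshold of 0.05. NT1 over TBV was tested against 0 on 1 value per source pair (n = 3); NT1p12/TBVp13 reuses sources and was only shown. The pair difference was fitted on 9 arrays with dye orientation as a covariate, for rows with at least 3 arrays in each pair. Named genes were a fixed list of 20 symbols, of which 15 were measured, the 5 smallest p in each direction over the pairs, the 6 smallest p in each direction in the difference, genes whose probes lay on opposite sides of 0 in the mean over 3 pairs with a gap over 1 (there were none), and 2 genes per pathway list; other genes were chosen after their values were seen. Members and lists were chosen with earlier results of these data known. The fits were tested on simulated data. Python 3.11.15 and matplotlib 3.10.9 drew the figures. Alternatives covered dye orientation, centring, scaling, probes, whole numbers, direction, left-out arrays and eBayes settings.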

Additional observations from a re-analysis of the deposited data

Results flagged for a closer look

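In 53 groups of 4 or 5 arrays, 1 array of a splicing gene lay far from the others by Dixon's test in 3. Chance gives about 1 in 20 for normally distributed values with decimals. That rate does not hold for whole numbers, where equal values make any other value pass. Prpf8 read -0.78 on array 4 of NT1p12/TBVp12, with the other 3 between -0.34 and -0.28. Hnrnpm read 0 on array 1 of NT1p14/TBVp13, with the others at 1, and Hnrnpd read 0 on array 3 of NT1p12/TBVp12, with the others at -1; in both genes these arrays hold whole numbers.

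The difference between NT1p14/TBVp13 and NT1p12/TBVp12 passed the limma test for 8 genes. It was 2.41 for Hnrnpab, 2.09 for Hnrnpm, 1.91 for Srsf3, 1.77 for Hnrnpd, 1.24 for Srsf6, 0.73 for Snrpa1, 0.68 for Hnrnpf and -1.0 for Hnrnpul1. The test compares arrays that share source names within each pair, and the labels do not say whether they repeat 1 preparation.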

How the results depend on the processing

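For NT1 over TBV, 0 splicing genes passed in all 25 alternatives. At an unadjusted p under 0.05 (limma) there were 0 to 11 splicing genes and 0 to 1785 of all rows. Of all rows, 1 passed with 13 arrays and pairs as random blocks, and 1 with centring on ribosomal protein genes. Means changed sign for Srsf5 (-0.02 with no-whole-number probes, -0.10 with NT1p14/TBVp13 turned), Snrpd1 (-0.02 without NT1 1/TBV2), Hnrnpdl (-0.06 with NT1 in Cy5 only, -0.24 with NT1p14/TBVp13 turned, -0.03 without that pair, -0.02 without its wide-spread arrays), Snrpb2 (-0.10 without the wide-spread arrays, -0.04 to 0.29 without single arrays), Sf3b3 (0.17 with TBV in Cy5 only) and Hnrnpa2b1 (0.04 with NT1 in Cy5 only). With NT1p12/TBVp12 turned they became -0.04 for Hnrnpa0, 0.14 for Hnrnpa2b1, 0.24 for Snrpa1 and 0.00 for Sf3b3.

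For the pair difference, 8 splicing genes and 1250 rows passed. Both counts were 0 with NT1 in Cy5 only, TBV in Cy5 only, trend and robust eBayes, a threshold of 0.01 or NT1p14/TBVp13 turned. In these settings 2 to 23 splicing genes and 542 to 5845 of all rows had an unadjusted p under 0.05 (limma). The counts were 0 and 17 with a dye term per pair, 5 and 290 with no dye term, 15 and 2300 with rows on all 9 arrays, 14 (probes of 13 genes) and 1890 with each probe a row, 14 and 7568 with ribosomal centring, and 0 and 30 without both wide-spread arrays. Without single arrays they ranged from 0 to 15 and from 0 to 2482. The members' median of 0.44 became -0.48 with ribosomal centring, 0.01 with no-whole-number probes and 0.01 with NT1p14/TBVp13 turned. Hnrnpll changed sign at 0.08 with NT1 in Cy5 only, 0.14 without the wide-spread arrays and ranged from -0.17 to 0.10 without single arrays. Sf3a1 was -0.03 with TBV in Cy5 only, Snrpb ranged from -0.08 to 0.27 without single arrays, and Hnrnpf -0.06 with no-whole-number probes. Ribosomal centring gave -0.47 for Hnrnpa2b1, -0.53 for Hnrnpu, -0.81 for Snrpb, -0.42 for Snrpd1, -0.64 for Sf3a1, -0.40 for Prpf8, -0.25 for Hnrnpf and -0.19 for Snrpa1. The cause was not tested. No paired analysis was possible because the labels give no replicate numbers shared between pairs.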
